A study of Mus musculus with 12 samples.

Results

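Pressure load on the heart, from an operation at 12 weeks of age to harvest at 15 weeks, was compared with a sham operation in mice whose dams breathed filtered air in pregnancy. Transverse aortic constriction (TAC) narrows the aortic arch so that the left ventricle pumps against a raised pressure. The comparison takes 6 of the 12 heart libraries of the series, 3 from sham-operated and 3 from TAC-operated offspring, chosen by the surgery and exposure written in their labels. The dams of both groups were kept in filtered air from E0.5 to E17.5 of gestation. The offspring stayed in filtered air, had an echocardiogram at 11 weeks of age, were operated on at 12 weeks and had their hearts taken at 15 weeks. In TAC the constriction was set with a 27 gauge needle. The other 6 libraries, 3 sham and 3 TAC, come from offspring exposed in utero to diesel exhaust over the same days and are used only where the same surgery is set beside it. No genetic modification is named. The sources used here do not give strain, sex, litter or sequencing run, and hearts of 1 group may share a litter. The p-values therefore measure the spread between these samples, which may include shared litters.

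Pressure load makes heart muscle cells grow in width, and as they do they switch on genes that are otherwise used in the fetal heart, such as the natriuretic peptides and the skeletal form of actin. Fibroblasts between the muscle cells turn into matrix-producing cells and lay down collagens, periostin and other proteins that stiffen the wall. Over time the muscle also tends to lower its use of fatty acids, its calcium pump and its potassium channels.

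Of 27179 genes in the count table, 19213 had at least 1 count in these 6 libraries, and 13626 passed the filter on low counts and were tested. The 6 libraries held 6712369 to 10403385 counts each. Levels are in CPM, read counts scaled to a common library size with TMM factors, and a count of 3 in a library, the floor used here, came to 0.318 to 0.487 CPM. Fold changes are log2 of TAC over sham ± SE from a fit of all 12 libraries, with n = 3 hearts per group throughout. Adjusted p-values are from edgeR's quasi-likelihood test with Benjamini-Hochberg adjustment over all genes tested, and "rose" and "fell" are used where it was under 0.05. Values of single hearts are given in the order replicate 1, 2, 3.

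The labelled tissue, heart, was checked against marker genes. Ttn, which encodes the giant sarcomere protein titin, held 3.88% to 6.03% of each library's counts, and Myh6, the alpha myosin heavy chain gene, held 1.54% to 3.26%. No heart held more than 1.38 CPM of any of the 10 lung markers. The atrial marker Bmp10 was at 0 in all 6 libraries. Myl7, the atrial light chain, stood at 1.16, 0.147 and 8.44 CPM in the sham hearts and 2.86, 1.00 and 10.2 CPM in the TAC hearts, so it was highest in replicate 3 of each group. The Y-linked gene Ddx3y was between 53.0 and 68.9 CPM in all 6 hearts. Sham replicate 1 and TAC replicate 1 had the fewest genes detected, 15224 and 15749 against 16213 to 17179 in the other 4. Mitochondrially encoded RNA took 29.5%, 30.1% and 32.4% of sham counts and 25.1%, 30.7% and 28.2% of TAC counts. That is a difference of -2.68 percentage points, which did not pass a two-sided exact permutation test (p = 0.3, where the smallest p that 3 against 3 allows is 0.1).

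After TAC, 113 genes passed the threshold, which is 0.829% of those tested. Of these, 83 were higher (0.609%) and 30 were lower (0.22%). Over all 13626 genes tested, called or not, 6887 had a positive fold change. Counts of signs in the gene lists below were not tested. In every 1 of the 113, the 3 TAC hearts lay wholly above or wholly below the 3 sham hearts. Of all genes tested, 8.2% showed such a separation upward and 7.57% downward. The same hearts gave the calls, so the separation describes the called genes and is no further support for them. The rises were also the bigger changes: 69 of 83 were over 2-fold, against 17 of 30 falls. The gene lists were chosen with earlier results of these data known, so counts of their members are a description. Genes in the lists of the extracellular matrix made up 34 of the 83 rises. The list of the muscle cell's stress response held 8, among them Meox1, which is also in the fibroblast list. Of the 30 falls, 19 were in none of the gene lists described here. The count rested on few hearts. With 1 sham library left out it was 56 (replicate 1), 69 (replicate 2) or 43 (replicate 3). With 1 TAC library left out it was 132 (replicate 1), 39 (replicate 2) or 93 (replicate 3). With DESeq2 it was 250. TAC replicate 2 was the highest of the TAC hearts in 62 of the 83 genes that rose and the lowest in 22 of the 30 that fell, so it sat at the far end of the response for most of them.

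Genes that heart muscle cells switch on under load gave some of the steepest rises. Of 37 natriuretic and stress-response genes of cardiomyocytes tested, 8 rose and none fell, with a median log2 fold change of 0.59 against 0.0051 for all genes tested. Without sham replicate 3 the count was 5. Meox1, a homeobox factor of activated cardiac fibroblasts, is among the 8 that rose and is also in the fibroblast list. Nppa and Nppb encode the atrial and B-type natriuretic peptides, hormones that the stretched heart releases to lower blood volume and pressure. Acta1 encodes skeletal alpha-actin, an actin that is also used in the fetal heart. Ankrd1 encodes a nuclear and sarcomeric ankyrin repeat protein that binds titin and responds to stretch.

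These 4 genes are classic readouts of load and moved together here, so the 250 bases before the start of each are shown, from RefSeq on GRCm38.p6, on the strand of the gene. Capitals mark matches on either strand to 4 motifs. These are CATTCC, called the MCAT element, and the letters GATAA, the core of the GATA element, as well as the CArG box (CCAAATATGG in Acta1) and the TATA box, searched as TATAAA. No match overlaps another.
Nppa, chr4:148000472-148000721, plus strand: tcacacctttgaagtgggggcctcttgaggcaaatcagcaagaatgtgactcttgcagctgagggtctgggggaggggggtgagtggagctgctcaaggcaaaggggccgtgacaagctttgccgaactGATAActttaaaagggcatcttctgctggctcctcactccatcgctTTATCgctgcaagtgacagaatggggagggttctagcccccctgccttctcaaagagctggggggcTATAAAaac
Nppb, chr4:147985650-147985899, plus strand: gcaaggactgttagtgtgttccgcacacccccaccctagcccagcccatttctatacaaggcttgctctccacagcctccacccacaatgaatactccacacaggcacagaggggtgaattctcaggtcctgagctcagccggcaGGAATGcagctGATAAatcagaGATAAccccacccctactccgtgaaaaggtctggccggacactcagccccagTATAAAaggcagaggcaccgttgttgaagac
Acta1, chr8:123894776-123895025, minus strand: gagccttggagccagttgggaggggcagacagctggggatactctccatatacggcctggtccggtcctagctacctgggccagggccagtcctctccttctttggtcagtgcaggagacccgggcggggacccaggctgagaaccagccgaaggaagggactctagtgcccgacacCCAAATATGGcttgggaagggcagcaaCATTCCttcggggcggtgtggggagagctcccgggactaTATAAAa
Ankrd1, chr19:36119845-36120094, minus strand: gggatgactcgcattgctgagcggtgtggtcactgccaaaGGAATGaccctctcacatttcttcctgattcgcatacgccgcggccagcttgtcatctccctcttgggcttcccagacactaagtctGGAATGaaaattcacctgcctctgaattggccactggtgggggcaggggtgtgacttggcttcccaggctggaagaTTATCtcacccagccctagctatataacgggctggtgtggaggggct
The MCAT element lies in the promoters of Nppb, Acta1 and Ankrd1, and in that of Ankrd1 at 2 places, both read from the opposite strand as GGAATG. The GATA core lies in Nppa, Nppb and Ankrd1, and the CArG box in Acta1. Among 32851 mouse promoters of the same length, 12.6% hold the MCAT element, 22.6% the GATA core, 1.47% a CArG box and 12.4% the TATA box. Among the 10240 genes tested that have a promoter in the set, the shares were 13.1%, 17.3%, 1.46% and 8.53% in the same order. Of the genes that rose, 61 have a promoter in that set: 14 of them hold the MCAT element, 14 the GATA core, 1 a CArG box and 12 the TATA box. Of the 20 genes that fell with a promoter there, 3 hold the MCAT element, 7 the GATA core, 1 a CArG box and 2 the TATA box. A match describes the letters in these windows and is not a binding site. Nppb and Nppa are neighbours, with starts 14822 bases apart on the same strand of chromosome 4.

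Nppa stood at 56.8, 105 and 46.4 CPM in the sham hearts and 687, 976 and 415 CPM in the TAC hearts. Even the lowest TAC heart, replicate 3, was far above the highest sham heart (log2 fold change 3.32 ± 0.50, adjusted p = 0.0175). Its call depended on single libraries, with adjusted p-values of 0.108 when sham replicate 1 was left out, 0.0737 for sham replicate 3 and 0.0759 for TAC replicate 2. The antisense gene Gm13054 covers 61.5% of the exon bases of Nppa, and no source used here gives the strand setting of the counting, so reads of both cannot be told apart. Nppa is also an atrial gene, and it was the 1 call among the 11 atrial markers tested. Summed, the atrial list, most of which is Myh6, ran from 27520.0 to 36474 CPM in the sham hearts and from 16963 to 30221 CPM in the TAC hearts. The part of atrial tissue in the level of Nppa was not tested.

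Nppb rose beside it and with less spread, at 90.7, 68.9 and 87.6 CPM in the sham hearts and 294, 430.4 and 345 CPM in the TAC hearts. The 2 groups were well apart (log2 fold change 2.11 ± 0.27, adjusted p = 0.000563), and the call held when any 1 of the 6 libraries was left out. Acta1 was at 349, 108 and 85.3 CPM in the sham hearts and 2975, 2845 and 1754 CPM in the TAC hearts. Its TAC hearts were each several-fold above the highest sham heart, replicate 1, which was itself high for its group (log2 fold change 3.80 ± 0.53, adjusted p = 0.0103). Without TAC replicate 2 its adjusted p was 0.0759. Ankrd1 was at 879.6, 462 and 516 CPM in the sham hearts and 2519, 2537 and 1739 CPM in the TAC hearts. Sham replicate 1 was again the highest sham heart, and no sham heart reached the lowest TAC heart (log2 fold change 1.87 ± 0.26, adjusted p = 0.000546).

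Few genes of the contractile apparatus passed the threshold. Xirp2, an actin-binding protein of the intercalated disc where muscle cells join, rose to 2970.4, 3918 and 3088 CPM after TAC against 1175, 902 and 1042 CPM after sham (log2 fold change 1.68 ± 0.23, adjusted p = 0.000466). Mybpc2, the fast skeletal form of myosin-binding protein C, went to 59.1, 45.0 and 56.5 CPM after TAC against 17.3, 14.2 and 13.1 CPM after sham (log2 fold change 1.84 ± 0.22, adjusted p = 0.000192). Both rises held without each of the 6 libraries. Per kilobase of exon, Mybpc2 was 0.434%, 0.531% and 0.465% of its cardiac counterpart Mybpc3 in the sham hearts and 1.24%, 1.66% and 1.56% in the TAC hearts, so the skeletal form stayed a minor one. Myot encodes myotilin, a protein of the Z-disc, and was the 1 gene to rise among 27 of the sarcomere list, at 41.6, 48.5 and 57.9 CPM after sham and 88.5, 105 and 126 CPM after TAC (log2 fold change 1.11 ± 0.25, adjusted p = 0.0381). That call was lost in 5 of the fits with 1 library left out, at 0.189 when sham replicate 1 was left out, 0.114 for sham replicate 2, 0.0777 for sham replicate 3, 0.17 for TAC replicate 2 and 0.125 for TAC replicate 3. The median of the sarcomere list was -0.15. Tcap, the telethonin that caps titin at the Z-disc, was at 627, 593 and 848 CPM after sham and 499.6, 363 and 476 CPM after TAC (log2 fold change -0.63 ± 0.19, adjusted p = 0.143). Mylk3, the cardiac myosin light chain kinase, was at 480.0, 517 and 423 CPM after sham and 361, 238 and 369 CPM after TAC (log2 fold change -0.55 ± 0.18, adjusted p = 0.175). Neither passed the threshold, though no TAC heart reached a sham heart in either gene.

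The swap of myosin from the fast alpha to the slow beta form, a hallmark of loaded rodent hearts, was uneven between hearts. Myh7, the beta myosin heavy chain, was at 1172, 880.4 and 828 CPM after sham and 1589, 1267 and 3285 CPM after TAC. Every TAC heart was above every sham heart, but TAC replicate 3 was more than 2 times the others and the gene did not pass the threshold (log2 fold change 1.09 ± 0.28, adjusted p = 0.0846). Myh6, the alpha form, was at 35885, 26869 and 28224 CPM after sham and 28734, 15173 and 21407 CPM after TAC, with TAC replicate 1 above 2 of the sham hearts (log2 fold change -0.48 ± 0.23, adjusted p = 0.454). Per kilobase of exon, Myh7 was 2.55%, 2.56% and 2.29% of Myh6 in the sham hearts and 4.32%, 6.52% and 12.0% in the TAC hearts. The groups did not overlap in this ratio, and alpha myosin stayed the main form in all 6 hearts. Acta1 per kilobase was 3.64%, 2.03% and 1.24% of the cardiac actin gene Actc1 in the sham hearts. In the TAC hearts it was 34.6%, 60.6% and 30.1%. Actc1 itself was at 10110.0, 5598 and 7260.2 CPM after sham and 9050.3, 4949 and 6142 CPM after TAC, and the groups overlapped (log2 fold change -0.19 ± 0.25, adjusted p = 0.864). Both pairs are close paralogs, and no source used here says how reads matching both were counted.

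**Figure D1:**
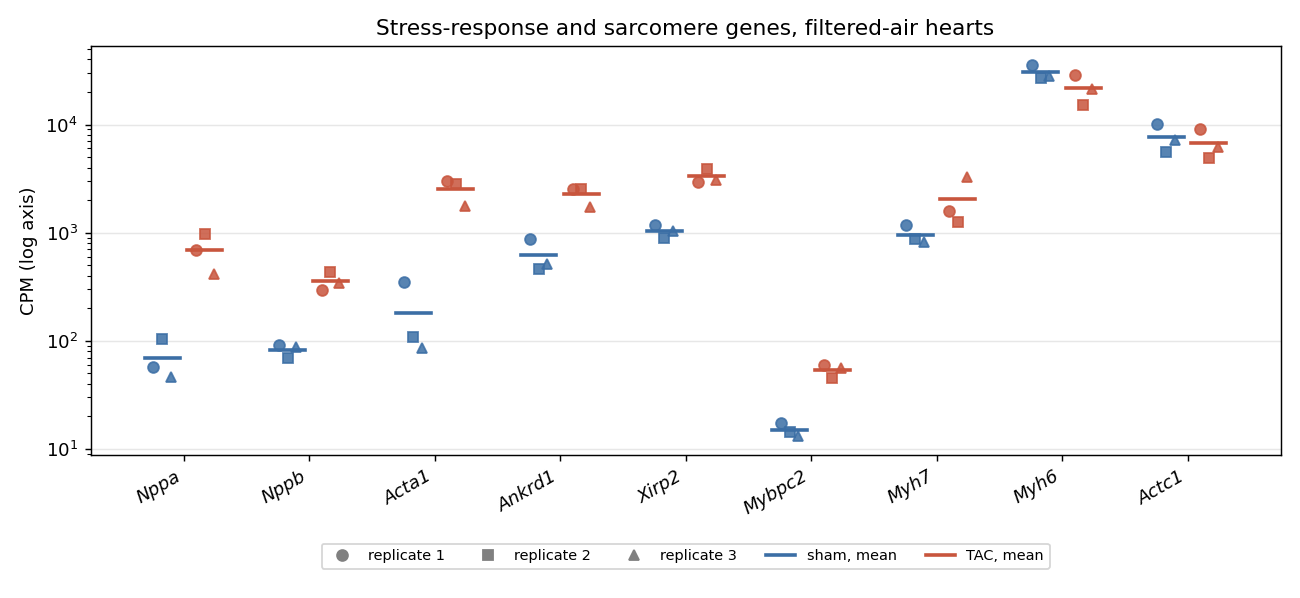
CPM on a log axis for 9 genes of the stress response and the sarcomere in the 3 sham and 3 TAC hearts of the filtered-air groups, with a symbol per replicate and a bar at the group mean. Nppa, Nppb, Acta1, Ankrd1, Xirp2 and Mybpc2 were higher in all 3 TAC hearts and passed the threshold, Myh7 was higher without passing it, and Myh6 and Actc1 overlapped.

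Of 26 calcium handling genes tested, 1 fell past the threshold and none rose, with a median of -0.091. Hrc, a histidine-rich protein that binds calcium inside the sarcoplasmic reticulum, went from 741, 656 and 701 CPM in the sham hearts to 478, 307 and 460.1 CPM in the TAC hearts. TAC replicate 2 was lowest and no TAC heart reached a sham heart (log2 fold change -0.75 ± 0.18, adjusted p = 0.0451), but the adjusted p was 0.168 when sham replicate 1 was left out, 0.0977 for sham replicate 2, 0.137 for sham replicate 3, 0.266 for TAC replicate 2 and 0.0736 for TAC replicate 3. Atp2a2, the calcium pump SERCA2 that refills the store, was at 10035, 7056 and 8313 CPM after sham and 7276, 3834 and 4931 CPM after TAC, with TAC replicate 1 inside the sham range (log2 fold change -0.66 ± 0.23, adjusted p = 0.24). Pln, the phospholamban that restrains the pump, was at 4302, 4182 and 4562 CPM after sham and 3344, 3113 and 3404 CPM after TAC (log2 fold change -0.40 ± 0.22, adjusted p = 0.531), and Gm47644 on the opposite strand covers 59.6% of its exon bases. Ryr2, the release channel, was at 4007, 3069 and 3658 CPM after sham and 3404, 2028 and 2503 CPM after TAC, and its groups overlapped (log2 fold change -0.44 ± 0.21, adjusted p = 0.451).

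Both calls among ion channel genes were falls of potassium channel subunits. Of 37 channel and connexin genes tested, 2 fell and none rose, and the median was -0.32. Kcnv2, a silent subunit that modifies other voltage-gated potassium channels, went from 7.83, 19.8 and 19.6 CPM in the sham hearts to 3.57, 2.76 and 4.06 CPM in the TAC hearts. Sham replicate 1 was low for its group, yet still about 2 times the highest TAC heart (log2 fold change -2.17 ± 0.38, adjusted p = 0.00532). Kcnd2, a pore subunit of the fast transient outward current, went from 24.1, 41.8 and 29.4 CPM to 15.7, 10.3 and 11.4 CPM, again without overlap (log2 fold change -1.35 ± 0.25, adjusted p = 0.00636). With limma-voom the adjusted p of Kcnv2 was 0.0778. Without TAC replicate 2 their adjusted p-values were 0.0542 and 0.075, and for Kcnd2 it was 0.0595 without sham replicate 2. Kcnip2, the auxiliary subunit of that same current, was at 75.9, 67.1 and 54.4 CPM after sham and 36.1, 23.4 and 56.2 CPM after TAC, and TAC replicate 3 lay inside the sham range (log2 fold change -0.77 ± 0.26, adjusted p = 0.221). Gja1, the gap junction protein connexin 43, was at 321, 197 and 349 CPM after sham and 337, 237 and 166 CPM after TAC, with the groups overlapping (log2 fold change -0.23 ± 0.30, adjusted p = 0.872).

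Of 31 genes of adrenergic, endothelin, angiotensin and apelin signalling, 1 rose. Ace encodes the enzyme that makes angiotensin II, and it was at 51.7, 73.3 and 57.4 CPM in the sham hearts and 109.8, 167 and 127 CPM in the TAC hearts. All 3 TAC hearts lay above the sham hearts (log2 fold change 1.15 ± 0.21, adjusted p = 0.00593), with adjusted p-values of 0.0505 when sham replicate 1 was left out, 0.0532 for sham replicate 3 and 0.0602 for TAC replicate 2. Adra1b, an alpha-1 adrenergic receptor, was at 23.7, 21.9 and 20.1 CPM after sham and 14.4, 6.64 and 9.32 CPM after TAC and just missed the threshold (log2 fold change -1.11 ± 0.27, adjusted p = 0.0536). Rgs2, a brake on such receptors, was at 11.0, 30.1 and 29.5 CPM after sham and 8.81, 11.3 and 8.72 CPM after TAC, with TAC replicate 2 above sham replicate 1 by a small margin (log2 fold change -1.28 ± 0.31, adjusted p = 0.0554).

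Among the gene lists, those of the matrix held the most rises. Among 140 genes tested in the 5 matrix lists together, 34 rose and none fell, 120 had a positive fold change and the median was 0.83. Over all genes tested, 0.609% rose. The lists were chosen with earlier results of these data known, so these counts are a description. Adamts7, an ADAMTS protease outside these lists, fell and is described below. Summed over the lists, matrix RNA was 5598, 6067 and 5457 CPM in the sham hearts and 9638, 12254 and 8806 CPM in the TAC hearts. Each TAC heart was thus well above each sham heart, with TAC replicate 2 the highest. In these whole-heart samples more cells of a type and more RNA per cell cannot be told apart. For the 5 matrix lists together the count of rises was 20 when sham replicate 1 was left out, 16 for sham replicate 3, 19 for TAC replicate 2 and 52 with DESeq2. It was 15 when both sham replicate 1 and TAC replicate 1 were left out, a choice made after the data were seen. The median stayed between 0.63 and 0.87 in each of these fits.

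Of 31 matricellular proteins tested, which sit in the matrix and signal to cells, 9 rose, and 30 had a positive fold change, with a median of 1.27. Cilp, a matrix glycoprotein that fibroblasts secrete, was at 12.4, 16.3 and 15.4 CPM in the sham hearts and 112, 276 and 140.0 CPM in the TAC hearts. That is a 12.0-fold rise with tight sham values (log2 fold change 3.59 ± 0.33, adjusted p = 0.000147). Postn, the periostin of activated fibroblasts, was at 39.0, 38.3 and 52.1 CPM in the sham hearts and 254, 533 and 208 CPM in the TAC hearts. TAC replicate 2 had about 2 times the periostin RNA of the other TAC hearts, and all 3 were far above sham (log2 fold change 2.94 ± 0.33, adjusted p = 0.000546). Fstl1, a secreted follistatin-like glycoprotein, was at 69.4, 85.3 and 82.4 CPM after sham and 214, 313 and 178 CPM after TAC (log2 fold change 1.57 ± 0.19, adjusted p = 0.000192). Fn1, the fibronectin on which new matrix assembles, was at 52.0, 57.7 and 52.4 CPM after sham and 158, 226 and 118 CPM after TAC (log2 fold change 1.63 ± 0.21, adjusted p = 0.000329). These 4 rises held without each of the 6 libraries.

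Thrombospondins and tenascin gave steep rises from low levels. Thbs4, a thrombospondin induced in loaded muscle, was at 2.65, 2.06 and 5.84 CPM in the sham hearts and 32.0, 97.0 and 34.8 CPM in the TAC hearts. Its log2 fold change was the greatest of the 83 rises, from low sham values (log2 fold change 3.99 ± 0.55, adjusted p = 0.00794). Without sham replicate 1 its adjusted p was 0.0821. Thbs1, a relative that can activate latent TGF-beta, was at 15.9, 32.0 and 15.4 CPM after sham and 59.4, 70.9 and 46.7 CPM after TAC, where sham replicate 2 was the highest sham heart (log2 fold change 1.49 ± 0.26, adjusted p = 0.00593). Its adjusted p was 0.0532 when sham replicate 3 was left out and 0.052 for TAC replicate 2. Tnc, the tenascin C of healing tissue, was at 1.80, 0.881 and 0.811 CPM after sham and 12.3, 11.0 and 5.62 CPM after TAC, clear of overlap in spite of the low level (log2 fold change 2.98 ± 0.49, adjusted p = 0.00256). With limma-voom its adjusted p was 0.0896. Ccn2, the connective tissue growth factor, did not pass (log2 fold change 1.82 ± 0.39, adjusted p = 0.0742) at 29.6, 85.0 and 25.3 CPM after sham and 171, 173 and 149 CPM after TAC, with sham replicate 2 about 3 times the other sham hearts.

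All 23 collagen genes tested had a positive fold change, and 10 of them rose, with a median of 1.08. The fibrillar collagen that gives scar its strength showed a moderate rise: Col1a1 was at 70.1, 60.8 and 60.2 CPM in the sham hearts and 175, 222 and 113 CPM in the TAC hearts. Each TAC heart was above each sham heart (log2 fold change 1.42 ± 0.26, adjusted p = 0.0107), but the adjusted p was 0.0559 when sham replicate 1 was left out, 0.058 for sham replicate 2, 0.0787 for sham replicate 3 and 0.0759 for TAC replicate 2. Its partner chain Col1a2 was at 97.7, 90.7 and 83.9 CPM after sham and 201, 294 and 174 CPM after TAC and did not pass (log2 fold change 1.30 ± 0.30, adjusted p = 0.0645). Col3a1, the fibrillar collagen of type III, was at 123, 157 and 165 CPM after sham and 298, 559 and 279 CPM after TAC, also without overlap and without passing (log2 fold change 1.35 ± 0.43, adjusted p = 0.262).

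The network collagen of type VIII moved most. Col8a1 was at 30.9, 22.3 and 21.4 CPM in the sham hearts and 112, 194 and 105 CPM in the TAC hearts, which gave the smallest adjusted p of all genes in the comparison (log2 fold change 2.46 ± 0.24, adjusted p = 2.01e-05). Its partner chain Col8a2 had 3, 3 and 4 counts in the sham libraries and 47, 66 and 34 counts in the TAC libraries, and so was near the floor in sham (log2 fold change 3.67 ± 0.67, adjusted p = 0.00615, or 0.0575 when TAC replicate 2 was left out). With limma-voom its adjusted p was 0.0695. Of the type VI collagens that surround cells, Col6a2 was at 32.6, 34.9 and 33.7 CPM after sham and 77.6, 79.2 and 59.0 CPM after TAC (log2 fold change 1.09 ± 0.19, adjusted p = 0.00416). Col6a3 was at 56.9, 62.5 and 57.9 CPM after sham and 120.4, 129 and 96.8 CPM after TAC (log2 fold change 0.96 ± 0.19, adjusted p = 0.0107), with adjusted p-values of 0.0635 when sham replicate 1 was left out, 0.0754 for sham replicate 3 and 0.0787 for TAC replicate 2. The basement membrane collagen Col15a1 was at 93.7, 109 and 96.0 CPM after sham and 269.7, 230.5 and 149 CPM after TAC (log2 fold change 1.12 ± 0.20, adjusted p = 0.00576), with an adjusted p of 0.0528 when sham replicate 3 was left out. Col5a1, Col5a2, Col14a1 and Col4a1 also rose, each with a call that was lost in some fits with 1 library left out. The adjusted p of Col5a1 was then 0.104 when sham replicate 1 was left out, 0.0628 for sham replicate 2, 0.111 for sham replicate 3, 0.0552 for TAC replicate 1 and 0.167 for TAC replicate 2. For Col5a2 it was 0.247 when sham replicate 1 was left out, 0.147 for sham replicate 2, 0.146 for sham replicate 3, 0.0759 for TAC replicate 2 and 0.0843 for TAC replicate 3. For Col14a1 it was 0.154 when sham replicate 1 was left out, 0.112 for sham replicate 2, 0.0967 for sham replicate 3, 0.0585 for TAC replicate 1 and 0.296 for TAC replicate 2. For Col4a1 it was 0.157 when sham replicate 1 was left out, 0.0968 for sham replicate 2, 0.14 for sham replicate 3, 0.0743 for TAC replicate 1 and 0.234 for TAC replicate 2.

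Proteoglycan and elastic fibre genes rose in 9 of 30 tested, with a median of 0.86. Ltbp2, which binds to the fibrillin scaffold of elastic fibres, was at 2.65, 3.82 and 6.33 CPM in the sham hearts and 23.8, 66.8 and 27.1 CPM in the TAC hearts. All TAC hearts were at least 3 times the highest sham heart (log2 fold change 3.23 ± 0.42, adjusted p = 0.00241). Fbn1, the fibrillin that builds that scaffold, was at 148, 109.7 and 137 CPM after sham and 408, 491 and 259 CPM after TAC (log2 fold change 1.55 ± 0.23, adjusted p = 0.00153), and Gm9913 on the other strand covers 20.1% of its exon bases. Bgn, the small proteoglycan biglycan, was at 57.2, 55.5 and 63.4 CPM after sham and 120.0, 207 and 114 CPM after TAC (log2 fold change 1.32 ± 0.21, adjusted p = 0.00206). The calls of these 3 held without each library. Mfap5, a glycoprotein of microfibrils, was at 5.40, 16.3 and 10.5 CPM after sham and 38.8, 96.1 and 48.2 CPM after TAC (log2 fold change 2.52 ± 0.38, adjusted p = 0.0072, or 0.0713 when sham replicate 3 was left out). Lum, the lumican that spaces collagen fibrils, was at 44.1, 34.7 and 32.0 CPM after sham and 72.2, 120.4 and 64.8 CPM after TAC (log2 fold change 1.21 ± 0.23, adjusted p = 0.00794), with adjusted p-values of 0.0513 when sham replicate 2 was left out, 0.0758 for sham replicate 3 and 0.0934 for TAC replicate 2. Fbln2, the fibulin 2 of vessel walls and valves, was at 79.8, 94.4 and 73.7 CPM after sham and 156, 182 and 143 CPM after TAC (log2 fold change 0.96 ± 0.17, adjusted p = 0.00641), with an adjusted p of 0.0713 when sham replicate 3 was left out and 0.0532 for TAC replicate 2.

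The last of the matrix lists hold genes that process, crosslink or cut matrix. Collagen processing had 2 rises among 25 tested and a median of 0.43. Adamts2, which trims procollagen, was at 13.9, 15.9 and 16.5 CPM in the sham hearts and 39.5, 47.9 and 28.1 CPM in the TAC hearts and was stable to each left-out heart (log2 fold change 1.32 ± 0.21, adjusted p = 0.00198). Loxl2, a crosslinking oxidase, was at 10.2, 13.7 and 17.0 CPM after sham and 42.0, 47.9 and 31.8 CPM after TAC (log2 fold change 1.58 ± 0.27, adjusted p = 0.00576). Lox, the main crosslinking oxidase, was at 1.06, 4.11 and 1.95 CPM after sham and 12.98, 21.8 and 7.89 CPM after TAC and did not pass (log2 fold change 2.61 ± 0.60, adjusted p = 0.0689). Of 31 proteases and inhibitors, 4 rose and none fell, with the same median of 0.43. Adamts7, an ADAMTS protease outside the lists, fell, with no TAC heart reaching a sham heart (log2 fold change -1.12 ± 0.25, adjusted p = 0.0294). Its adjusted p was 0.154 when sham replicate 1 was left out, 0.109 for sham replicate 3, 0.234 for TAC replicate 2 and 0.087 for TAC replicate 3. Mmp2, the gelatinase A that fibroblasts make, was at 48.6, 54.2 and 42.5 CPM after sham and 118, 131 and 92.8 CPM after TAC, stable to each left-out heart (log2 fold change 1.24 ± 0.17, adjusted p = 0.000546).

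Adamtsl2, a fibrillin-binding relative of the ADAMTS proteases without protease activity, was at 9.21, 13.4 and 10.9 CPM after sham and 37.8, 62.3 and 39.9 CPM after TAC (log2 fold change 2.07 ± 0.35, adjusted p = 0.00865), with an adjusted p of 0.0993 when sham replicate 1 was left out and 0.0766 for sham replicate 3. Adamts12, a protease of the same family, was at 1.06, 2.64 and 2.92 CPM after sham and 12.7, 6.14 and 6.09 CPM after TAC (log2 fold change 1.95 ± 0.45, adjusted p = 0.0396). Its adjusted p was 0.181 when sham replicate 1 was left out, 0.0853 for sham replicate 2, 0.0804 for sham replicate 3, 0.158 for TAC replicate 1 and 0.0759 for TAC replicate 2. Timp1, an inhibitor of matrix metalloproteases, was at 3.81, 2.20 and 2.92 CPM after sham and 5.60, 9.52 and 4.30 CPM after TAC. It was higher in each TAC heart without passing the threshold (log2 fold change 1.10 ± 0.44, adjusted p = 0.326).

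**Figure D2:**
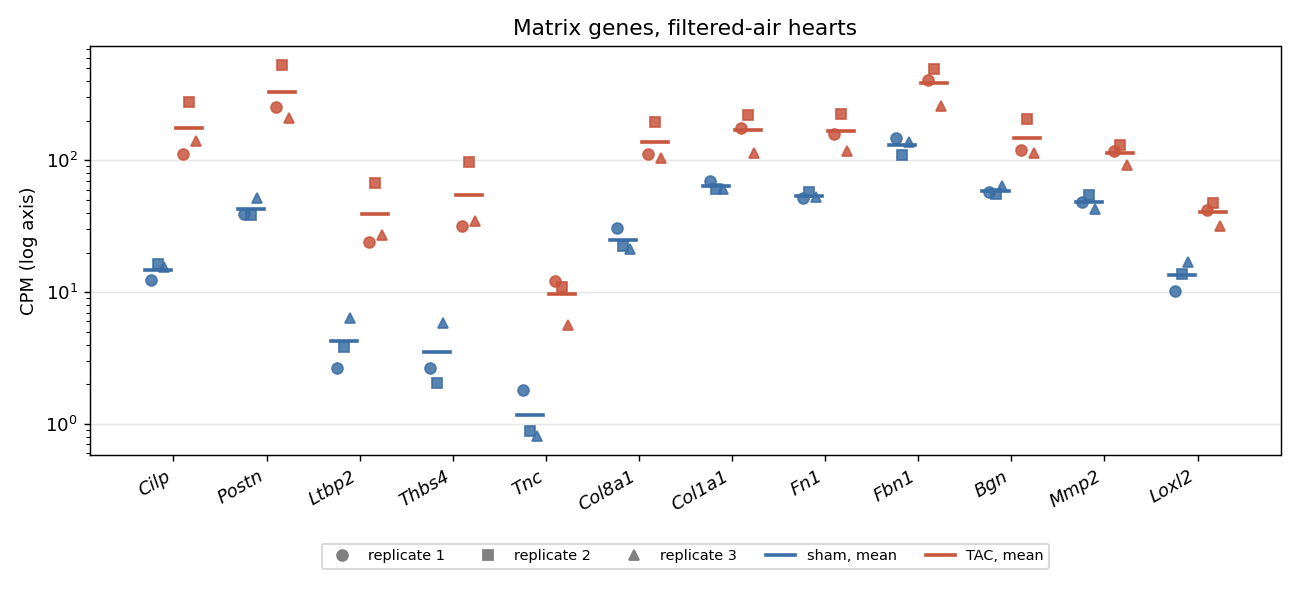
CPM on a log axis for 12 matrix genes in the 3 sham and 3 TAC hearts of the filtered-air groups, with a symbol per replicate and a bar at the group mean. In all 12 genes every TAC heart lay above every sham heart, and TAC replicate 2, drawn as a square, was the highest in 11 of them.

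Of 28 genes of TGF-beta, BMP and activin signalling tested, none passed the threshold, with a median of 0.082. Tgfb1, the main profibrotic ligand, was at 7.20, 5.43 and 8.44 CPM after sham and 13.3, 8.77 and 7.65 CPM after TAC, and its groups overlapped (log2 fold change 0.50 ± 0.30, adjusted p = 0.587). Tgfb2 was at 10.3, 11.2 and 9.09 CPM after sham and 12.4, 21.8 and 13.7 CPM after TAC (log2 fold change 0.65 ± 0.29, adjusted p = 0.403) and Tgfb3 at 9.53, 12.6 and 7.79 CPM after sham and 13.1, 20.7 and 14.9 CPM after TAC (log2 fold change 0.70 ± 0.29, adjusted p = 0.352). Their receptor Tgfbr2 was at 48.6, 46.2 and 43.0 CPM after sham and 53.8, 72.3 and 59.3 CPM after TAC (log2 fold change 0.43 ± 0.16, adjusted p = 0.297). These last 3 were each higher in every TAC heart by small margins. Among 21 Wnt receptors and antagonists, 1 rose: Frzb, a secreted protein that binds Wnt, at 6.99, 3.38 and 1.78 CPM after sham and 12.98, 19.2 and 14.9 CPM after TAC (log2 fold change 1.91 ± 0.36, adjusted p = 0.00794), with adjusted p-values of 0.0521 when sham replicate 2 was left out, 0.0532 for sham replicate 3 and 0.0759 for TAC replicate 2.

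In the list of fibroblast identity, 4 of 22 genes tested rose, with a median of 0.32. This list shares members with others: Meox1 is also counted in the stress-response list, and Mfap5 in the proteoglycan and elastic fibre list. Meox1, a homeobox factor of activated cardiac fibroblasts, was at 4.34, 12.9 and 6.49 CPM in the sham hearts and 23.0, 37.8 and 24.9 CPM in the TAC hearts. Sham replicate 2 was the highest sham heart, but below all TAC hearts (log2 fold change 1.87 ± 0.32, adjusted p = 0.00576, or 0.0622 when sham replicate 3 was left out). Pi16, a marker of a vascular fibroblast subset, was at 42.1, 41.6 and 28.4 CPM after sham and 101, 103 and 65.6 CPM after TAC (log2 fold change 1.27 ± 0.26, adjusted p = 0.0271). Its adjusted p was 0.0993 when sham replicate 1 was left out, 0.0654 for sham replicate 2, 0.126 for sham replicate 3, 0.0859 for TAC replicate 1 and 0.178 for TAC replicate 2. Medag was at 9.10, 19.1 and 8.60 CPM after sham and 28.9, 29.4 and 21.9 CPM after TAC (log2 fold change 1.13 ± 0.26, adjusted p = 0.0427), with an adjusted p of 0.216 when sham replicate 1 was left out, 0.21 for sham replicate 3, 0.0969 for TAC replicate 1 and 0.234 for TAC replicate 2. The other member that rose was Mfap5. Pdgfrb, the receptor of mural cells and fibroblasts, was at 87.5, 83.4 and 66.8 CPM after sham and 123, 108 and 102 CPM after TAC without passing (log2 fold change 0.48 ± 0.16, adjusted p = 0.194). Acta2, the smooth muscle actin that myofibroblasts use, was at 38.5, 57.3 and 46.6 CPM after sham and 26.8, 48.0 and 24.4 CPM after TAC and overlapped (log2 fold change -0.52 ± 0.27, adjusted p = 0.493).

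Energy genes leaned downward with few calls. Among genes of fatty acid uptake and oxidation, 39 of 43 had a negative fold change and the median was -0.33, but 1 gene of this list, Slc27a1, fell. Ech1, an auxiliary enzyme of fatty acid oxidation outside the lists, also fell (log2 fold change -0.74 ± 0.17, adjusted p = 0.0381) and is described below. Slc27a1, the fatty acid transporter FATP1, was at 121, 117 and 96.7 CPM after sham and 79.9, 46.6 and 56.3 CPM after TAC. Every TAC heart was below every sham heart (log2 fold change -0.87 ± 0.20, adjusted p = 0.0392), yet the adjusted p was 0.154 when sham replicate 1 was left out, 0.114 for sham replicate 2, 0.0713 for sham replicate 3, 0.274 for TAC replicate 2 and 0.143 for TAC replicate 3. Eci1, an isomerase of beta-oxidation, was at 188, 169 and 163 CPM after sham and 94.8, 79.2 and 132 CPM after TAC and sat just outside the threshold (log2 fold change -0.77 ± 0.18, adjusted p = 0.0505). Acaa2, the thiolase of the last step, was at 628, 585 and 664 CPM after sham and 436, 294 and 393 CPM after TAC (log2 fold change -0.74 ± 0.21, adjusted p = 0.111). Cd36, the fatty acid translocase, was at 969, 1010.3 and 1267 CPM after sham and 844, 1087 and 1073 CPM after TAC (log2 fold change -0.11 ± 0.18, adjusted p = 0.898). Cpt1b, the gate of mitochondrial import, was at 26.8, 26.7 and 23.2 CPM after sham and 36.7, 18.4 and 19.1 CPM after TAC (log2 fold change -0.05 ± 0.28, adjusted p = 0.977), and its exons overlap a readthrough gene on the same strand. Ppargc1a, a coactivator of mitochondrial genes, was at 147, 307 and 146 CPM after sham and 99.0, 139.7 and 235 CPM after TAC, with wide spread in both groups (log2 fold change -0.34 ± 0.49, adjusted p = 0.886).

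None of 39 genes of the citric acid cycle, ketone and branched-chain amino acid use passed, although 36 had a negative fold change (median -0.28). Ppm1k, the phosphatase that switches on branched-chain amino acid breakdown, was at 133, 141 and 126 CPM after sham and 93.7, 54.1 and 85.5 CPM after TAC (log2 fold change -0.78 ± 0.22, adjusted p = 0.124). Bdh1, the ketone body enzyme, went the other way at 123, 94.4 and 115 CPM after sham and 165, 182 and 176 CPM after TAC (log2 fold change 0.65 ± 0.20, adjusted p = 0.143). Of 72 nuclear oxidative phosphorylation genes, none passed, 63 were negative and the median was -0.22. Over all 13626 genes tested, 6887 were positive. All 13 mitochondrially encoded genes were negative (median -0.34) and none passed. Markers of ventricular cardiomyocytes, the cells that hold most of this RNA, were also negative in 14 of 15, with a median of -0.31 and no call. Their summed level ran from 114680 to 154420 CPM in the sham hearts and from 84535 to 135680 CPM in the TAC hearts. Their part in the lower energy genes was not tested.

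Glucose genes had 1 rise and 1 fall among 37 tested, with a median of -0.038. Pfkp, the platelet form of phosphofructokinase, rose to 85.6, 82.8 and 54.2 CPM after TAC against 41.1, 32.7 and 37.8 CPM after sham (log2 fold change 1.00 ± 0.19, adjusted p = 0.0107), with adjusted p-values of 0.0727 when sham replicate 2 was left out, 0.0632 for sham replicate 3 and 0.0787 for TAC replicate 2. Phkg1, the muscle catalytic subunit of phosphorylase kinase that starts glycogen breakdown, went from 18.0, 16.2 and 13.8 CPM to 7.86, 3.13 and 3.35 CPM (log2 fold change -1.74 ± 0.36, adjusted p = 0.0196). TAC replicate 1 kept about 2 times the level of the other TAC hearts, and the adjusted p was 0.081 when sham replicate 1 was left out, 0.0595 for sham replicate 2, 0.0528 for sham replicate 3, 0.172 for TAC replicate 2 and 0.0983 for TAC replicate 3. Pfkfb1, which makes and removes an activator of phosphofructokinase, was at 6.77, 8.37 and 10.1 CPM after sham and 3.57, 2.38 and 1.55 CPM after TAC, just outside the threshold (log2 fold change -1.74 ± 0.42, adjusted p = 0.0546).

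**Figure D3:**
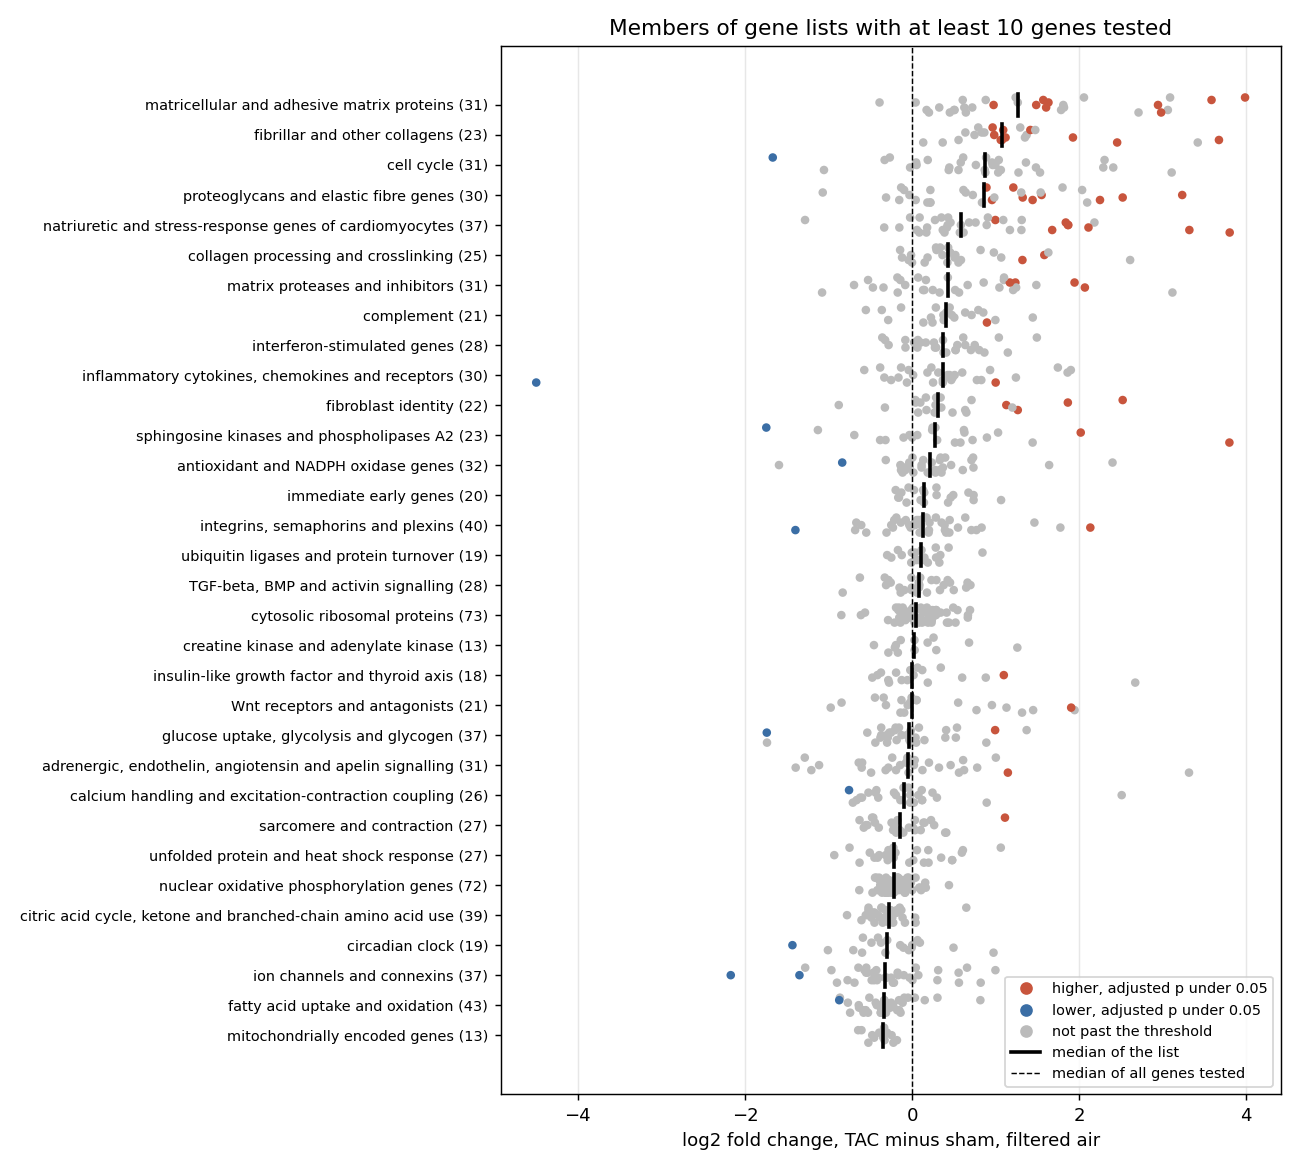
Each point is 1 gene, placed by its log2 fold change of TAC over sham in the filtered-air hearts, in 32 gene lists with 10 or more genes tested (number in brackets), ordered by the list median (black bar). Red and blue points passed the threshold upward and downward. Matricellular, collagen and proteoglycan lists sit highest, with medians of 1.27, 1.08 and 0.86 beside a cell cycle median of 0.88, and the mitochondrially encoded, fatty acid and ion channel lists sit lowest.

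Among regulators and signals, several falls were large. Pla2g5, a secreted phospholipase A2 that heart muscle expresses, went from 35.1, 25.7 and 24.3 CPM to 10.6, 5.26 and 9.56 CPM. TAC replicate 2 was lowest, and even the highest TAC heart was far below the sham hearts (log2 fold change -1.74 ± 0.27, adjusted p = 0.00153). Plxnb1, the plexin B1 receptor of semaphorin 4D, went from 64.8, 49.3 and 43.6 CPM to 22.6, 15.0 and 22.3 CPM (log2 fold change -1.40 ± 0.22, adjusted p = 0.00153). Both falls held without each library. In the same 2 lists, Pla2g4a, the cytosolic phospholipase A2 that frees arachidonic acid, rose to 4.88, 8.52 and 7.53 CPM after TAC against 0.529, 2.20 and 2.60 CPM after sham (log2 fold change 2.02 ± 0.45, adjusted p = 0.0331), and its adjusted p was 0.137 when sham replicate 1 was left out, 0.064 for sham replicate 2, 0.0528 for sham replicate 3, 0.193 for TAC replicate 2 and 0.0876 for TAC replicate 3. Itgbl1, a secreted protein with integrin beta-like repeats, rose to 15.2, 32.0 and 23.8 CPM after TAC against 5.93, 5.87 and 4.22 CPM after sham and was stable to each left-out heart (log2 fold change 2.13 ± 0.28, adjusted p = 0.000329). Sphk1, which makes the lipid signal sphingosine-1-phosphate, had 0, 3 and 1 counts in the sham libraries and 38, 14 and 17 counts in the TAC libraries. Its sham values are at or near the floor, and without any 1 of the 6 libraries the adjusted p was 0.0513 to 0.162 (0.041 in the fit of all).

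Ppl, the plakin protein periplakin, went from 11.9, 13.4 and 12.0 CPM to 2.74, 4.01 and 3.11 CPM. The 3 sham hearts lay close together and the TAC hearts were all under 5 CPM (log2 fold change -1.91 ± 0.34, adjusted p = 0.00576). Mylk4, a kinase of the myosin light chain kinase family, went from 182, 196 and 134 CPM to 76.8, 45.0 and 95.5 CPM (log2 fold change -1.24 ± 0.22, adjusted p = 0.00659). Neither call was lost when 1 library was left out. Rbfox1, a splicing regulator of muscle and brain, went from 36.6, 39.5 and 42.2 CPM to 20.7, 14.8 and 17.7 CPM (log2 fold change -1.15 ± 0.24, adjusted p = 0.02), with adjusted p-values of 0.0646 when sham replicate 2 was left out, 0.0982 for sham replicate 3, 0.172 for TAC replicate 2 and 0.0749 for TAC replicate 3. Cenpf, a kinetochore protein that muscle cells also hold outside division, went from 22.1, 31.7 and 28.4 CPM to 10.1, 5.14 and 10.5 CPM (log2 fold change -1.67 ± 0.30, adjusted p = 0.00576, or 0.0602 when TAC replicate 2 was left out). It was the 1 call among 31 cell cycle genes, whose median was 0.88 with 26 positive, so it moved against its list. Ccnd2, a cyclin of the G1 phase, was at 136, 111 and 139 CPM after sham and 227, 185 and 178 CPM after TAC without passing (log2 fold change 0.61 ± 0.19, adjusted p = 0.169).

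**Figure D4:**
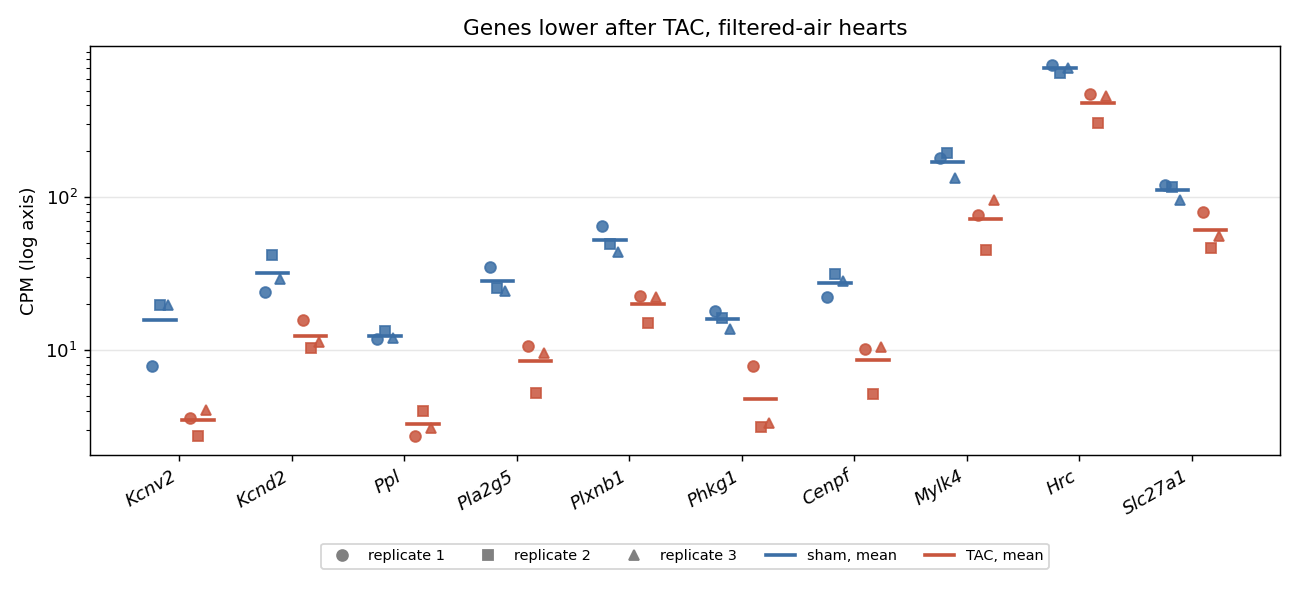
CPM on a log axis for 10 genes that were lower after TAC in the filtered-air hearts, with a symbol per replicate and a bar at the group mean. In all 10 genes every TAC heart lay below every sham heart, and TAC replicate 2, drawn as a square, was the lowest in 9 of them.

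Few stress-protective genes passed the threshold. Of 32 antioxidant and NADPH oxidase genes, 1 fell: Gstm1, a glutathione transferase, from 101, 104 and 83.4 CPM to 52.0, 51.3 and 58.4 CPM (log2 fold change -0.84 ± 0.16, adjusted p = 0.0101), with adjusted p-values of 0.0505 when sham replicate 1 was left out, 0.0628 for sham replicate 2 and 0.0745 for TAC replicate 2. Nox4, the constitutively active NADPH oxidase, was at 1.69, 0.440 and 1.62 CPM after sham and 0.953, 12.8 and 6.57 CPM after TAC, with TAC replicate 1 inside the sham range (log2 fold change 2.40 ± 0.67, adjusted p = 0.125). None of 27 genes of the unfolded protein and heat shock response passed. Hspa5, the chaperone BiP of the endoplasmic reticulum, was at 620.2, 414 and 484 CPM after sham and 338, 287 and 358 CPM after TAC and lower in each TAC heart (log2 fold change -0.63 ± 0.17, adjusted p = 0.104). Ciart, a repressor in the circadian clock, was the 1 call among 19 clock genes, going from 13.8, 11.9 and 9.90 CPM to 4.76, 3.76 and 4.66 CPM (log2 fold change -1.43 ± 0.29, adjusted p = 0.0178). Its adjusted p was 0.091 when sham replicate 1 was left out, 0.058 for sham replicate 2, 0.145 for TAC replicate 2 and 0.0541 for TAC replicate 3, and no source used here gives the hour of harvest. No immediate early gene (20 tested), ribosomal protein gene (73) or ubiquitin and protein turnover gene (19) passed.

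Few inflammatory genes passed the threshold. Among 30 cytokine, chemokine and receptor genes, 1 rose and 1 fell, with a median of 0.37. Tlr4, the receptor for bacterial lipopolysaccharide and for damage signals, was at 23.2, 24.5 and 22.9 CPM after sham and 31.1, 56.1 and 54.1 CPM after TAC, with TAC replicate 1 closest to sham (log2 fold change 1.00 ± 0.22, adjusted p = 0.025). Its adjusted p was 0.101 when sham replicate 1 was left out, 0.0732 for sham replicate 2, 0.111 for sham replicate 3, 0.207 for TAC replicate 2 and 0.11 for TAC replicate 3. Tlr2, a related receptor, was at 2.54, 2.20 and 3.08 CPM after sham and 7.62, 10.7 and 8.01 CPM after TAC and did not pass (log2 fold change 1.75 ± 0.43, adjusted p = 0.0592). Ccl11, the eosinophil attractant eotaxin, had 23, 25 and 19 counts in the sham libraries and 0, 0 and 3 counts in the TAC libraries, so it was at or below the floor after TAC (log2 fold change -4.50 ± 1.05, adjusted p = 0.041). Without any 1 library except TAC replicate 3 its adjusted p was 0.0742 to 0.263. None of 28 interferon-stimulated genes passed, and their median was 0.37.

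Markers of leukocytes were a little higher beside the matrix genes. Of 22 macrophage and monocyte markers, 20 had a positive fold change, 1 rose and the median was 0.50. Their summed level was 329.6, 471 and 447 CPM in the sham hearts and 504, 763 and 538 CPM in the TAC hearts, so all 3 TAC hearts were above all 3 sham hearts. The 1 call, Ms4a7, had 4, 2 and 4 counts in the sham libraries and 22, 39 and 16 counts in the TAC libraries (log2 fold change 2.76 ± 0.65, adjusted p = 0.0451), and without any 1 library except TAC replicate 3 its adjusted p was 0.0504 to 0.3. Csf1r, the receptor that macrophages need to survive, was at 32.5, 41.7 and 36.0 CPM after sham and 52.0, 65.4 and 50.8 CPM after TAC without passing (log2 fold change 0.61 ± 0.20, adjusted p = 0.175). Of 10 neutrophil markers 6 and of 12 lymphocyte markers 9 were under 1 CPM in all 6 hearts. Endothelial markers summed to 1731 to 1746 CPM in the sham hearts and 1825 to 2004 CPM in the TAC hearts, with no call among 22 and a median of 0.080. No smooth muscle marker passed among 15. The part of these cell types in the matrix result was not tested.

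Growth factor and hormone genes included Igfbp7, an insulin-like growth factor binding protein, which rose to 227, 237 and 129 CPM after TAC against 120.1, 79.1 and 77.2 CPM after sham (log2 fold change 1.10 ± 0.23, adjusted p = 0.0211), with adjusted p-values of 0.105 when sham replicate 2 was left out, 0.126 for sham replicate 3, 0.0702 for TAC replicate 1 and 0.167 for TAC replicate 2. It was the 1 call among 18 of its list. Dio2, the deiodinase that makes active thyroid hormone, was at 2.33, 2.35 and 0.811 CPM after sham and 3.69, 21.8 and 10.6 CPM after TAC (log2 fold change 2.67 ± 0.68, adjusted p = 0.116), with TAC replicate 1 close to the sham hearts. Igf1 was at 14.1, 13.4 and 18.2 CPM after sham and 25.0, 42.9 and 16.1 CPM after TAC, and TAC replicate 3 lay inside the sham range (log2 fold change 0.88 ± 0.28, adjusted p = 0.175).

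Several of the greatest fold changes came from genes outside the lists with little RNA in sham hearts. Nlrc3, a member of the NOD-like receptor family, had 7, 9 and 7 counts in the sham libraries and 81, 59 and 26 counts in the TAC libraries (log2 fold change 2.66 ± 0.56, adjusted p = 0.0196), with adjusted p-values of 0.125 when sham replicate 1 was left out, 0.0558 for sham replicate 2, 0.0914 for sham replicate 3, 0.0688 for TAC replicate 1 and 0.0952 for TAC replicate 2. Gpr65, a proton-sensing receptor of leukocytes, had 0, 4 and 5 counts in the sham libraries and 34, 40 and 23 counts in the TAC libraries (log2 fold change 3.15 ± 0.75, adjusted p = 0.0473), and the call was lost without any 1 of the 6 libraries, at 0.0668 to 0.261. Such folds depend on the prior count of the fit and give only the order of size.

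The threshold itself cut through a smooth run of values. Just inside it were Col5a2 (1.93 ± 0.39, adjusted p = 0.0498), Gpr65 (0.0473), the deubiquitinase gene Otulin (0.97 ± 0.23, 0.0453), Ms4a7 (0.0451) and Hrc (0.0451). Among those just outside were Eci1 (0.0505), the integrin gene Itga9 (0.83 ± 0.20, 0.0505), Dusp23 (-1.38 ± 0.33, 0.0505) and Adra1b (0.0536). The call of each of the 5 inside was lost in at least 5 of the 6 fits that left out 1 library. None of 40 microRNA genes tested was called. The count at an unadjusted p under 0.05 was 1511 genes of all kinds, 11.1% of those tested.

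The same operation in offspring exposed to diesel exhaust in utero gives a second look at the members, since the comparisons share no library, though they share the fit's estimate of spread. There 442 genes passed (3.24% of those tested), 239 higher (1.75%) and 203 lower (1.49%). All 83 rises and all 30 falls of the filtered-air comparison had the same sign after diesel exhaust, beside 67.4% of all genes tested. Of the 83, 69 also passed there, which is 83.1% of the filtered-air rises and 28.9% of the diesel-exhaust rises. Of the 30 falls, 26 also passed, 86.7% and 12.8% of the 2 lists. The median log2 fold change of the 83 was 1.55 after filtered air and 1.57 after diesel exhaust, and that of the 30 was -1.14 and -1.27. The filtered-air values chose these genes, so their medians there are a description.

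Some leading genes were close in size in both exposures and others had greater fold changes after diesel exhaust. Of the 83 rises 51, and of the 30 falls 20, had the greater absolute log2 fold change after diesel exhaust. Cilp had a log2 fold change of 3.59 ± 0.33 after filtered air and 4.22 ± 0.33 after diesel exhaust. For Nppb the values were 2.11 ± 0.27 and 2.18 ± 0.27, for Acta1 3.80 ± 0.53 and 3.88 ± 0.53, and for Col8a1 2.46 ± 0.24 and 2.98 ± 0.24. Those of Nppa were 3.32 ± 0.50 and 4.35 ± 0.52, of Postn 2.94 ± 0.33 and 3.99 ± 0.34, and of Ltbp2 3.23 ± 0.42 and 4.44 ± 0.43. Myh7, which missed the threshold after filtered air at 1.09 ± 0.28, passed after diesel exhaust at 1.43 ± 0.28 (adjusted p = 0.00798). Nox4 was 2.40 ± 0.67 after filtered air and 6.07 ± 0.97 after diesel exhaust (adjusted p = 0.00159), Tgfb2 0.65 ± 0.29 and 1.67 ± 0.30 (0.0025), and Timp1 1.10 ± 0.44 and 2.37 ± 0.45 (0.00454). After diesel exhaust, falls numbered 12 among the 43 genes of fatty acid use and rises 59 among the 140 matrix genes. A higher count in 1 exposure is not a test of the difference.

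The difference itself, the exposure by surgery interaction, was past the threshold for no gene (0.0%) with edgeR, while 327 genes (2.4%) had an unadjusted p under 0.05. DESeq2 called 1 gene, Ptprf. Limma-voom called none. Of the 83 rises, 11 had an unadjusted interaction p under 0.05, and the smallest adjusted p among them was 0.739. Of these, Sphk1, Gpr65, Adamts12, Ms4a7 and Ankrd45 had the smaller fold change after diesel exhaust, and Pamr1, Postn, Svep1, Bgn and Col14a1 the larger. Pamr1, a secreted protein of muscle regeneration, was 1.55 ± 0.35 after filtered air (adjusted p = 0.0366) and 4.09 ± 0.40 after diesel exhaust. Its adjusted interaction p was 0.739. With 1 filtered-air library left out, the filtered-air adjusted p of Pamr1 was 0.122 when sham replicate 1 was left out, 0.137 for sham replicate 2, 0.0754 for sham replicate 3 and 0.334 for TAC replicate 2. The genes were selected on their filtered-air values, which by itself favours a smaller value in the other comparison, so these are listed as values. None of the 30 falls had an unadjusted interaction p under 0.05.

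**Figure D5:**
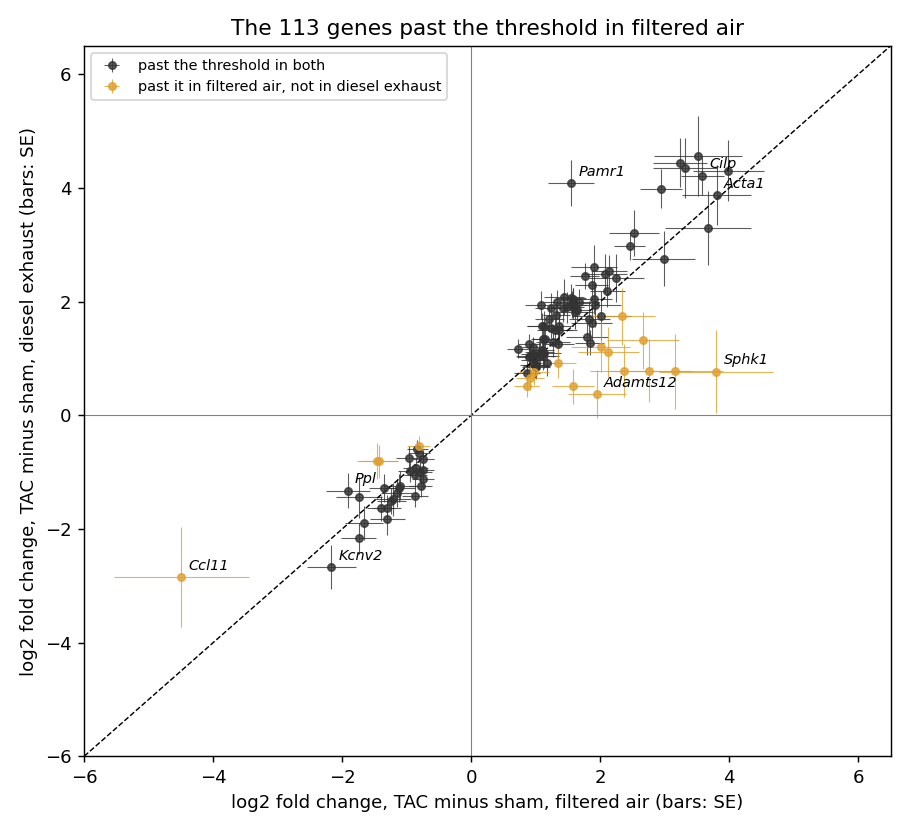
Log2 fold change of TAC over sham after filtered air (horizontal) and after diesel exhaust (vertical) for the 113 genes past the threshold in filtered air, with SE bars and the line of equal change (dashed). All 113 lie in the same-sign quadrants. Dark points passed in both comparisons, and the lighter points, among them Sphk1, Adamts12 and Ccl11, passed after filtered air only by this threshold.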

How the data were processed

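RNA of frozen hearts was depleted of ribosomal RNA and sequenced on an Ion instrument, 4 samples per run, per the labels' protocols. Reads were processed with cutadapt 1.6, Subread 1.4.2 and featureCounts against mm10, per the submitters' processing notes. No source used here gives the strand setting, the handling of reads with several matches or the version of the annotation. The authors deposited a table of unnormalized counts for each Entrez gene number.

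Gene numbers were matched to RefSeq symbols (assembly GRCm38.p6) for 25275 of 27179 genes and to GENCODE for 18 more. The 1886 without a symbol held 4.19% of counts. Columns were matched to samples by the number in the sample title. With R 4.3.3 and edgeR 4.0.16, genes were kept by filterByExpr (minimum count 10), scaled by TMM and fitted over 12 libraries with a robust quasi-likelihood model that has 1 mean for each group (8 residual degrees of freedom). Benjamini-Hochberg adjustment ran over 13626 genes with a threshold of 0.05. SE is the absolute log2 fold change over the square root of F. When the fit was run on simulated counts, most of the 2-fold changes put in did not pass the threshold. A gene without a call may therefore still differ. DESeq2 1.42.0 and limma 3.58.1 were alternatives, with other scalings and filters and each library left out in turn.

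The text names the 15 rises and 15 falls of greatest fold among called genes (mean of 1 CPM or more, groups not overlapping), 25 hallmark genes, up to 6 called members of each of 47 gene lists (filled to 3 by p), the 3 most abundant markers per cell type and the 5 genes on each side of the threshold. From these, values are printed for the genes whose role is described, and some genes are not reported here. The members and lists were chosen with earlier results of these data known. Of 1236 list entries 3 had no match in the table.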

Additional observations from a re-analysis of the deposited data

How the results depend on the processing

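No paired analysis was possible because the labels give no replicate number shared between groups. The filtered-air count of 113 was 250 with DESeq2, 74 with limma-voom and 247 without the filter on low counts. Leaving out 1 of all 12 libraries at a time gave 39 to 143. Without the 2 libraries with the fewest genes detected (added after seeing the data) 61 genes were called, 45 of them among the 113. The diesel-exhaust count of 442 was 668 with DESeq2 and 188 to 530 with 1 library left out. The interaction count of 0 was 1 with DESeq2 and 1 without the filter (Capn11). The difference in mitochondrial share ran from -4.06 to -1.22 percentage points with 1 library left out. Of the 113 calls, 29 were kept without each filtered-air library in turn, 32 in each of 9 other fits and 23 in both.

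Among single genes, log2 fold changes turned sign for 4 that were not called in either fit: Actc1 to 0.064 without sham replicate 1 (range with 1 library left out -0.46 to 0.064), Ppargc1a to 0.12 without sham replicate 2 (-0.74 to 0.12), Cd36 to 0.016 without sham replicate 3 (-0.19 to 0.016), and Cpt1b to 0.13 and 0.11 without TAC replicates 2 and 3 (-0.45 to 0.13). The cause was not tested. In a fit of the 6 filtered-air libraries alone 87 genes were called, 73 of them among the 113. Described genes that lost their call there include Acta1 (adjusted p = 0.131), Thbs4 (0.0874), Mfap5 (0.124), Igfbp7 (0.0731), Tlr4 (0.0674), Slc27a1 (0.0742), Hrc (0.115), Pla2g4a (0.116), Medag (0.124), Adamts12 (0.0887), Sphk1 (0.0887), Ms4a7 (0.109), Otulin (0.0674) and Gpr65 (0.103). Of the 74 genes called with limma-voom, 72 were among the 113. Described genes that lost their call there include Tnc (0.0896), Kcnv2 (0.0778), Col8a2 (0.0695), Nlrc3 (0.206), Tlr4 (0.0815), Pla2g4a (0.0635), Myot (0.0534), Slc27a1 (0.055), Adamts12 (0.112), Ccl11 (0.0662), Sphk1 (0.152), Ms4a7 (0.235), Otulin (0.0813) and Gpr65 (0.112). Without the robust option 96 genes were called, 89 of them among the 113, and without the filter on low counts Col5a2 was not called (0.0915). Depth limits genes near the floor of 3 counts, where folds rest on few counts.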

Other observations

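Of the 113 genes, 47 were in no gene list, 28 higher and 19 lower. Those described here were chosen after their values were seen. Svep1, a large adhesion protein of vessel and lymphatic development, was at 26.6, 36.4 and 27.3 CPM in the sham hearts and 83.6, 142 and 79.8 CPM in the TAC hearts. All TAC hearts were more than 2 times the highest sham heart (log2 fold change 1.76 ± 0.23, adjusted p = 0.000329). Mgp, the matrix Gla protein that holds back calcification, was at 80.8, 77.5 and 75.8 CPM after sham and 153, 285 and 162 CPM after TAC (log2 fold change 1.36 ± 0.22, adjusted p = 0.00256). Emp1, an epithelial membrane protein, was at 31.8, 42.1 and 20.0 CPM after sham and 75.3, 114 and 87.1 CPM after TAC (log2 fold change 1.56 ± 0.23, adjusted p = 0.00109). Fibin, a small secreted protein named for fin bud initiation, was at 10.1, 6.46 and 8.60 CPM after sham and 22.9, 49.8 and 22.5 CPM after TAC (log2 fold change 1.91 ± 0.28, adjusted p = 0.00105). In each of these 4 genes TAC replicate 2 was the highest heart, and the call held without any 1 of the 6 filtered-air libraries. Adcy7, an adenylyl cyclase, was at 11.6, 18.8 and 15.6 CPM after sham and 38.1, 42.7 and 36.2 CPM after TAC (log2 fold change 1.35 ± 0.24, adjusted p = 0.00576), and the scaffold gene Cnksr1 at 3.60, 7.34 and 3.73 CPM after sham and 17.1, 16.8 and 18.0 CPM after TAC (log2 fold change 1.83 ± 0.31, adjusted p = 0.00443). In both genes the 3 TAC hearts lay close together, and the calls also held without any 1 library.

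Several falls outside the lists were in abundant muscle genes. Ech1, an auxiliary enzyme of fatty acid oxidation, went from 780.1, 784 and 838 CPM to 403, 463 and 572 CPM (log2 fold change -0.74 ± 0.17, adjusted p = 0.0381). The adjusted p was 0.106 when sham replicate 1 was left out, 0.102 for sham replicate 2, 0.14 for sham replicate 3, 0.119 for TAC replicate 1 and 0.167 for TAC replicate 2. Hopx, a homeodomain protein of heart muscle, went from 157, 164 and 161 CPM to 104, 70.2 and 106 CPM (log2 fold change -0.78 ± 0.18, adjusted p = 0.0398), with adjusted p-values of 0.106 when sham replicate 1 was left out, 0.112 for sham replicate 2, 0.12 for sham replicate 3, 0.271 for TAC replicate 2 and 0.0576 for TAC replicate 3, and Hopxos on the opposite strand covers 27.2% of its exon bases. Asb15, a muscle ankyrin repeat and SOCS box protein, went from 73.7, 58.3 and 75.3 CPM to 36.7, 32.3 and 38.5 CPM (log2 fold change -0.95 ± 0.19, adjusted p = 0.011), with adjusted p-values of 0.0581 when sham replicate 1 was left out, 0.0766 for sham replicate 3 and 0.0989 for TAC replicate 2. Pde4d, a phosphodiesterase that breaks down cyclic AMP near the calcium release channel, went from 62.2, 77.8 and 59.9 CPM to 35.7, 38.3 and 39.5 CPM (log2 fold change -0.81 ± 0.17, adjusted p = 0.0211). The call was lost in each fit with 1 library left out, at 0.05 when sham replicate 1 was left out, 0.121 for sham replicate 2, 0.0528 for sham replicate 3, 0.0626 for TAC replicate 1, 0.104 for TAC replicate 2 and 0.063 for TAC replicate 3. In all 4 genes no TAC heart reached a sham heart.

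Aldh1a2, which makes retinoic acid, was at 0.847, 2.35 and 1.30 CPM after sham and 9.41, 6.52 and 3.46 CPM after TAC (log2 fold change 2.13 ± 0.48, adjusted p = 0.0331), with an adjusted p of 0.162 when sham replicate 1 was left out, 0.133 for sham replicate 3, 0.118 for TAC replicate 1 and 0.131 for TAC replicate 2.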
